A study of Mus musculus with 4 samples.

Results

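Fibroblasts of the small intestinal lamina propria that carried Pi16, Cd34 or Grem1 transcripts and no Adamdec1 were examined in wild type (WT) and A20ZF7 mice. Members were chosen by their UMI counts of a few genes. They were barcodes with at least 500 UMIs (unique transcript molecules), 200 to 2500 genes and at most 15% mitochondrial UMIs that held at least 6 UMIs of Col1a1, Col1a2, Col3a1 and Dcn together, at least 2 UMIs of Pi16, Cd34 and Grem1 together, no UMI of Adamdec1, Bmp3, Bmp5, Bmp7 or F3, at most 2 UMIs of the muscle genes Des, Myh11 and Actg2, and at most 1 UMI of Cd3e, Cd3d, Cd3g, Trac and Trbc2. The rule found 782 members among 58963 filtered barcodes of both libraries, 343 of 22087 in WT and 439 of 36876 in A20ZF7. A20 is a ubiquitin-editing enzyme that limits NF-κB signalling, and A20ZF7 mice carry point mutations in its seventh zinc finger, which binds linear (M1-linked) ubiquitin chains. All mice were 12 weeks old and came from knock-in or WT mice, so all cell types of A20ZF7 mice carried the mutation. Each genotype was 1 gene expression library of 2 pooled mice made with a 5′ kit after a negative selection meant to enrich T cells and innate lymphoid cells, so the fibroblasts are cells that this selection left in.

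Intestinal fibroblasts fall into several known types. Pi16 fibroblasts, which also carry Cd34 and Ly6c1, lie in the adventitia around vessels, where they are regarded as a reserve population and as a niche for lymphoid cells. Grem1 fibroblasts, also called trophocytes, lie below the crypts and secrete Gremlin 1, which blocks BMP signals and so keeps the stem cell zone open to Wnt and R-spondin. Adamdec1 fibroblasts fill the lamina propria around the crypts and villi. Fibroblasts respond to IL-17 and TNF, and in that response make complement, serum amyloid and chemokines.

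With 1 library per genotype there was no replicate of either genotype and no test between them. All intervals given are 95% intervals for counting error only, exact for shares, levels and ratios of levels. Those of levels, ratios of levels and shares of antibody UMIs take each UMI as independent. They cover no variation between members or between mice. Members held 438922 UMIs in WT (median 1145 per member, 720 genes) and 487320 UMIs in A20ZF7 (median 961, 644 genes). A gene with no UMI was below 3 UMIs, that is 6.83 CPM (a gene's UMIs over all UMIs of the class, on the counts-per-million scale) in WT and 6.16 CPM in A20ZF7. The members shared no barcode between the libraries, while 1159 of the filtered barcodes occurred in both. Of the 343 WT members, hashtag antibodies assigned 44 to the mouse with hashtag 7 and 24 to the mouse with hashtag 8, called 13 as carrying both and left 262 uncalled.

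Members made up 1.55% of filtered barcodes in WT (interval 1.39 to 1.72%) and 1.19% in A20ZF7 (1.08 to 1.31%), a ratio of 0.767 (0.666 to 0.882). Among the fibroblasts that met the collagen, muscle and T cell limits, the shares were 6.19% of 5544 in WT and 5.84% of 7512 in A20ZF7, and the ratio of 0.945 had an interval of 0.824 to 1.08. The lower share of all barcodes in A20ZF7 was measured beside a lower share of Adamdec1 fibroblasts, at 14.4% in WT and 12.5% in A20ZF7, and a higher share of T cells, at 12.2% and 18.8%. Such shares can depend on the selection, whose part in these differences was not tested. With only barcodes of at least 1000 UMIs, the ratio of shares was 0.516.

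The genes that chose the members are given as a description. Dcn, a proteoglycan that binds collagen, was at 16055 CPM in WT and 11988 CPM in A20ZF7. Grem1 was at 1157 CPM (508 UMIs) in WT and 1469 CPM (716 UMIs) in A20ZF7. Cd34, a sialomucin of progenitor and adventitial cells, was at 1048 CPM and 700 CPM, and Pi16, a peptidase inhibitor, at 298 CPM and 550 CPM. Of the members, 169 in WT and 218 in A20ZF7 had exactly 2 UMIs of the 3 genes, while 240 and 398 barcodes met every other limit with 1 UMI and stayed outside. A further 493 WT and 539 A20ZF7 barcodes met all limits except that they held 2 or more Adamdec1 UMIs. Fibroblast genes that the rule did not use were also present, with Lum at 1827 CPM in WT and 1252 CPM in A20ZF7 and Pdgfra, the PDGF receptor of fibroblasts, at 387 and 351 CPM.

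The members were not uniform. In WT, 81 members (23.6%) had a Pi16 UMI, 212 (61.8%) had a Grem1 UMI, 15 (4.37%) had both and 65 (19.0%) had Cd34 UMIs alone. In A20ZF7, 135 (30.8%) had Pi16, 292 (66.5%) had Grem1, 33 (7.52%) had both and 45 (10.3%) had Cd34 alone. After each member was thinned to 500 UMIs, Pi16 was found in 12.0% of WT and 19.8% of A20ZF7 members, Grem1 in 44.9% and 50.3%, and Cd34 in 46.1% and 33.5%. In T cells, which should lack these genes, the thinned shares were 0.33% or less for all 3 genes in both libraries. The summed UMIs of these 3 genes chose the members, so their shares are tied to each other by the rule and are given as a description of 1 library per genotype.

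Members with Pi16 and no Grem1 (66 in WT, 102 in A20ZF7) and members with Grem1 and no Pi16 (197 and 259) differed by at least 2-fold in the same direction in both libraries for 66 genes higher with Pi16 and 62 higher with Grem1, of 1385 genes with at least 100 CPM and 10 UMIs (4.77% and 4.48%). Pi16 itself is among the 66 and Grem1 among the 62, since the members were split on them. With Pi16 stood Ackr3, a scavenging receptor for CXCL12, which was 11.2-fold higher in WT (interval 5.32 to 26.3) and 9.75-fold higher in A20ZF7 (4.47 to 24.2). Ly6c1 was 4.89-fold and 7.04-fold higher, Mfap5, a microfibril protein, 3.92-fold and 6.95-fold higher, and Igfbp6, which binds IGF2, 4.69-fold and 4.26-fold higher. Fn1, fibronectin, was 3.94-fold and 3.15-fold higher, and the alarmin Il33 was 2.89-fold and 3.20-fold higher. With Grem1 stood Sfrp1, a secreted Wnt inhibitor, at 1561 CPM against 165 CPM in WT and 1609 against 215 CPM in A20ZF7. Cxcl12, the ligand of CXCR4, was at 594 against 154 CPM in WT and 774 against 138 CPM in A20ZF7, and Bmp4 at 199 against 55.0 CPM and 135 against 23.1 CPM. Chodl was listed with no UMI in the Pi16 members of either library and at 224 and 128 CPM in the Grem1 members. Rgs5, often used as a pericyte gene, was at 477 and 350 CPM with Grem1 and at 22.0 and 23.1 CPM with Pi16. Cd34 differed less, 1.70-fold and 1.56-fold higher with Pi16.

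**Figure D1:**
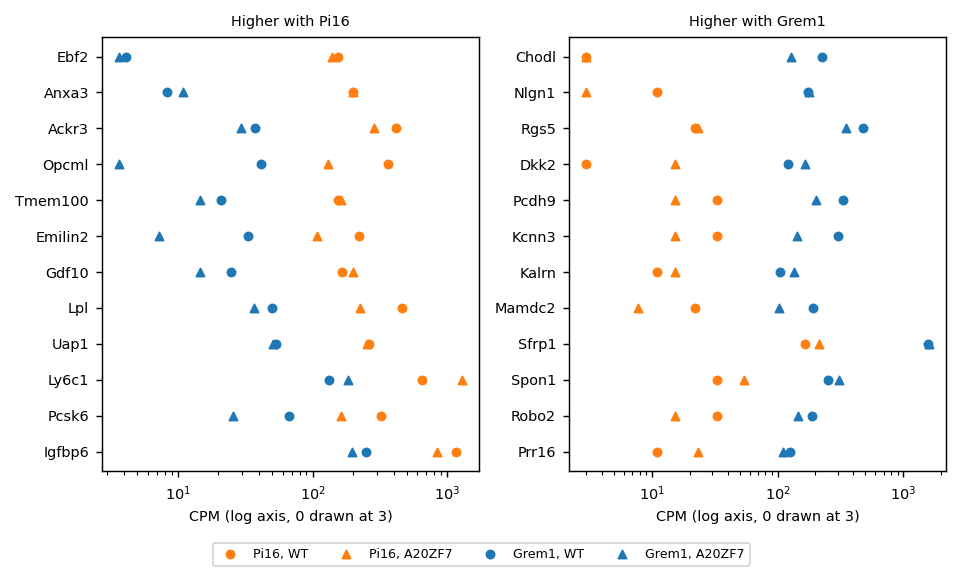
Level (CPM, log axis) of the 12 genes with the largest difference in each direction between members with Pi16 and no Grem1 (orange) and members with Grem1 and no Pi16 (blue), in WT (circles) and A20ZF7 (triangles); a gene with no UMI is drawn at 3 CPM. In every row the 2 orange points lie on the same side of the 2 blue points, as the choice of the genes requires.

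Against Adamdec1 fibroblasts (3188 barcodes in WT and 4605 in A20ZF7 with at least 2 Adamdec1 UMIs), 81 genes were at least 2-fold higher in the members in both libraries and 92 at least 2-fold lower, of 1662 genes at 100 CPM and 20 UMIs in either class (4.87% and 5.54%). Both classes were cut from the same cells, so these values describe the members and are no test. By the rule, Pi16, Cd34 and Grem1 are among the 81 and Adamdec1 is among the 92. Among genes the rule did not use, Ogn, a small leucine-rich proteoglycan, was 16.5-fold higher in WT (13.5 to 20.1) and 13.5-fold higher in A20ZF7 (11.0 to 16.6). Scara5, a ferritin receptor, was 12.9-fold and 9.76-fold higher, Ackr4, which scavenges CCL19 and CCL21, 13.3-fold and 9.12-fold, and Ebf1, a transcription factor, 12.9-fold and 7.95-fold. The neutrophil chemokine Cxcl1 was at 103 and 195 CPM in the members and at 9.74 and 20.6 CPM in Adamdec1 fibroblasts. Has1, a hyaluronan synthase, was at 103 and 152 CPM against 4.10 and 17.9 CPM. Mmp10, a stromelysin, went the other way, with 1 and 6 UMIs in the members and 592 and 448 CPM in Adamdec1 fibroblasts. Tnc, tenascin C, was at 34.2 and 30.8 CPM in the members against 663 and 402 CPM, and Aldh1a3, which makes retinoic acid, at 27.3 and 47.2 against 497 and 448 CPM. Hpse2 was at 72.9 and 78.0 CPM in the members, below its level of 145 and 117 CPM in barcodes of 10 to 100 UMIs, which hold free RNA.

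**Figure D2:**
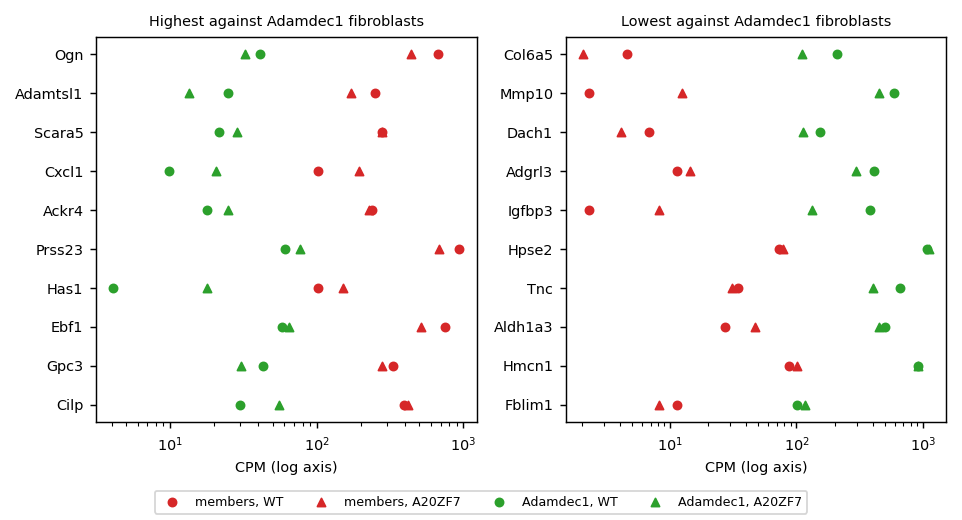
Level (CPM, log axis) of the 10 genes highest and the 10 genes lowest in the members (red) against Adamdec1 fibroblasts (green), in WT (circles) and A20ZF7 (triangles). Red and green points do not overlap in any row, as the choice of the genes requires, and Ogn spans 672 CPM in WT members to 32.6 CPM in A20ZF7 Adamdec1 fibroblasts.

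Lists of known markers were compared in the same way. Of 20 adventitial genes, 17 could be compared with Adamdec1 fibroblasts and 9 were at least 2-fold higher in the members in both libraries, beside 4.87% of all genes compared. Pi16 and Cd34 were among the 9 by the rule, and without them 7 of 15 were higher, among them Pcolce2 (7.54-fold and 6.59-fold), a procollagen C-proteinase enhancer, while Igfbp5 was lower. Of 14 trophocyte genes, 7 could be compared and 3 were higher, Grem1 by the rule, Ackr4 and Cd81, a tetraspanin, which is 2 of 6 without Grem1. Of 23 immediate early and heat shock genes, 20 could be compared and 10 were higher in the members, with Fos at 1982 and 1679 CPM against 437 and 522 CPM and Egr1 at 1665 and 936 against 289 and 260 CPM. These genes respond to tissue dissociation, whose part in the difference was not tested. Both metallothioneins were higher, Mt1 7.78-fold and 4.32-fold and Mt2 6.14-fold and 5.98-fold. Of 10 genes of other fibroblast types, among them Adamdec1 and the Bmp genes at 0 by the rule, the most abundant was Wnt5a, and Foxl1 of telocytes had no UMI in either library.

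Between the genotypes, 730 genes reached 100 CPM and 20 UMIs in the higher library and were at least 2-fold above their level in barcodes of 10 to 100 UMIs. Of these, 22 were at least 2-fold higher in A20ZF7 (3.01%) and 35 at least 2-fold lower (4.79%), and the median ratio over all 730 was 0.847. Immunoglobulin variable genes were 11 of the 22 and 4 of the 35, and from 96.6 to 100% of the UMIs of each came from 1 member. This left 11 and 31 other genes. Plac9a and Ndufb4 also differed in T cells and Adamdec1 fibroblasts. The 2 libraries were deposited with 33696 and 32285 gene identifiers, of which 31950 were common and were used, and Plac9a went from 3707 to 10.3 CPM and Ndufb4 from 22.8 to 189 CPM in the members, with ratios of 0.00248 and 8.66 in T cells and of 0.00498 and 6.91 in Adamdec1 fibroblasts. The unfiltered matrices held 1746 identifiers for WT alone and 335 for A20ZF7 alone, so the 2 libraries were counted on different gene lists. Which annotation each used is not given in the sources used here, and the part of this difference in other ratios was not tested.

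**Figure D3:**
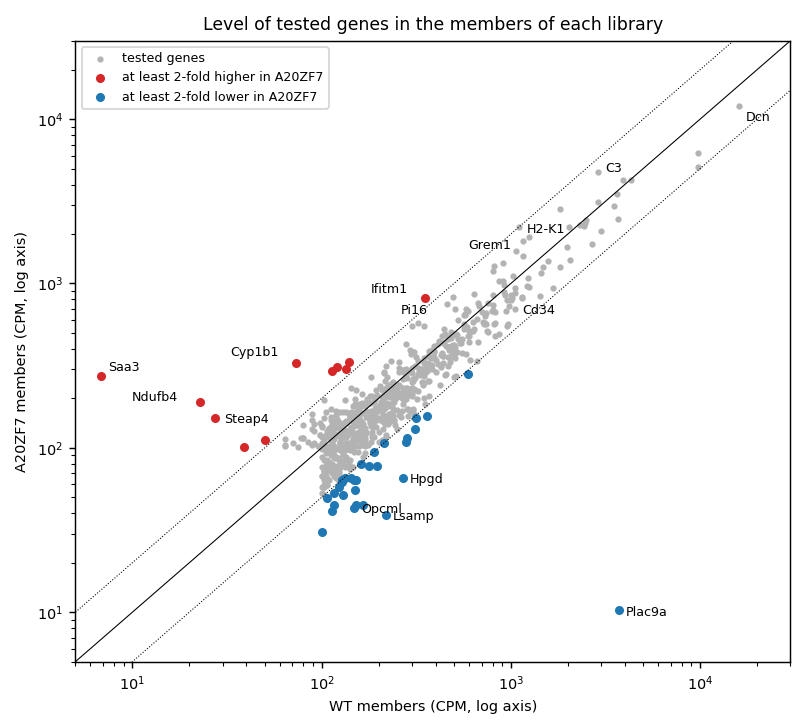
Level of the tested genes other than immunoglobulin genes in the WT members (x axis, CPM, log axis) against the A20ZF7 members (y axis, CPM, log axis); dotted lines mark 2-fold, and Saa3, with no WT UMI, is drawn at the floor of 6.83 CPM. Most genes lie between the dotted lines, with Saa3, Steap4 and Cyp1b1 above and Lsamp and Hpgd below.

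The acute phase gene Saa3, which encodes a serum amyloid made by fibroblasts and macrophages in inflammation, had no UMI in the 343 WT members and 133 UMIs in 36 of the 439 A20ZF7 members. Its level of 273 CPM (229 to 323) was at least 39.9-fold higher than the WT floor of 3 UMIs, and the lower limit of the exact interval of the ratio was 32.0. The bound against the floor was 14.8 after thinning, 3.91 in members with a Pi16 UMI, and 3.07 against the 24 WT members with hashtag 8 (33756 UMIs). The most in 1 member was 24 UMIs, and after thinning 5.01% of A20ZF7 members held it against 0.35% of A20ZF7 T cells. In low-UMI barcodes Saa3 was at 1.06 CPM in WT and 49.8 CPM in A20ZF7, and in Adamdec1 fibroblasts at 19.5 and 352 CPM. Steap4, a metalloreductase induced by IL-17 and TNF, was at 27.3 CPM (12 UMIs) in WT and 152 CPM (74 UMIs) in A20ZF7, a ratio of 5.55 (3.0 to 11.2). It was found in 10 WT and 61 A20ZF7 members, and Adamdec1 fibroblasts held 1.28 and 17.5 CPM. Steap4 was higher in A20ZF7 both in members with Pi16 (35.7 and 216 CPM) and in members with Grem1 (19.1 and 131 CPM).

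Promoter sequences are shown for the genes among the 11 whose 250 bases before the start held either of 2 motifs, to show where those letters lie. The sequences are those of RefSeq, build GRCm38.p6, read 5′ to 3′ along the gene. Capitals mark GGG followed by any 3 bases and TTCC, a form of the NF-κB site, or TTGC followed by any 2 bases and AA, a form of the C/EBP site, on either strand. Of the 11 genes, 8 had an entry, and 3 of them held a motif.
Saa3 (chr7:46715677-46715926, minus strand): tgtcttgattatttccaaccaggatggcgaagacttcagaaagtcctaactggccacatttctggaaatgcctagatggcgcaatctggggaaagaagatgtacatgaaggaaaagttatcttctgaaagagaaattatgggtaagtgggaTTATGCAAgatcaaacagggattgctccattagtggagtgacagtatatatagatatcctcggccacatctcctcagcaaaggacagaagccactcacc
Steap4 (chr5:7960222-7960471, plus strand): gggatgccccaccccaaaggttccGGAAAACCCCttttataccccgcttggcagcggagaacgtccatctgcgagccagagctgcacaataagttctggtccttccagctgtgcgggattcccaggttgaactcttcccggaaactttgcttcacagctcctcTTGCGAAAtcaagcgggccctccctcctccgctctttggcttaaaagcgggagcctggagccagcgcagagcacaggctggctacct
Serpina3n (chr12:104406458-104406707, plus strand): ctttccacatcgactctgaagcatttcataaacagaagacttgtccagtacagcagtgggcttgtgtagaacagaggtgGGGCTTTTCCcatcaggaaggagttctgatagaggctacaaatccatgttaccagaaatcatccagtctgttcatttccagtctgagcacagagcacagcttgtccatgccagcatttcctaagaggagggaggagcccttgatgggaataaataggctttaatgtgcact
Over 27025 promoters of the same 250 bases, 4.60% held the NF-κB letters and 9.55% the C/EBP letters. Saa3 held the C/EBP letters, Steap4 both and Serpina3n the NF-κB letters. A match is a description of the sequence and not of binding.

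Cfb, C3, Cp, Serpina3n and Cyp1b1 were higher by smaller ratios than Saa3 and Steap4, and are given as single genes, not as a list. Cfb, complement factor B of the alternative pathway, was at 139 CPM in WT and 332 CPM in A20ZF7, a ratio of 2.39 (1.77 to 3.27). C3, the central complement protein, was at 2875 CPM and 4796 CPM, a ratio of 1.67 (1.56 to 1.79) that did not reach 2-fold. C3 was present in 66.8% of WT and 87.7% of A20ZF7 members after thinning, against 0.97% or less of T cells. Cp, ceruloplasmin, was 2.58-fold higher (1.85 to 3.63) and Serpina3n, an acute phase protease inhibitor, 2.57-fold higher (1.87 to 3.58). The Cp ratio was 2.90 in T cells and 2.16 in low-UMI barcodes, the Serpina3n ratio 3.14 and 2.19, and the C3 ratio 3.63 and 2.21, all at far lower levels than in the members (Cp at 5.69 CPM, Serpina3n at 2.64 CPM and C3 at 17.3 CPM in A20ZF7 T cells). The part of free RNA in these ratios was not tested. With at least 1000 UMIs per barcode the ratios of Cp (1.91) and Serpina3n (1.72) were below 2-fold. The Cfb ratio was below 2-fold in members with Grem1 (1.80). Cyp1b1, a cytochrome P450 of retinoid and steroid metabolism, was at 72.9 and 326 CPM, a ratio of 4.48 (3.05 to 6.76). Of 14 complement genes, 9 were tested, 6 were above 1, 1 was past 2-fold and the median ratio was 1.49. Over all 730 tested genes 27.9% were above 1, 3.01% were past 2-fold higher and the median was 0.847. Of 31 IL-17 and NF-κB target genes, 6 were tested. Saa3 and Steap4, both past 2-fold, reached the level for testing through A20ZF7 alone, which fixed their direction, and are no support for the list. The other 4 reached 100 CPM in both libraries, with Cxcl1 at 103 and 195 CPM, Icam1 at 100.2 and 133 CPM and Cebpb at 144 and 164 CPM, while Cebpd was at 950 CPM in WT and 550 CPM in A20ZF7. Tnfaip3, which encodes A20, was at 246 and 456 CPM in the members and at 561 and 986 CPM in low-UMI barcodes, and was not tested for that reason.

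Of 24 interferon-stimulated genes, 4 were tested, all 4 were above 1 (median 1.61) and 1 was past 2-fold. Of 12 class I genes, 4 were tested, all 4 were above 1 (median 1.51) and none was past 2-fold. Over all tested genes the median was 0.847 and 3.01% were past 2-fold higher. The limit against low-UMI barcodes had to be met in the higher library only. Class I genes summed to 3503 CPM in WT and 4289 CPM in A20ZF7 low-UMI barcodes, against 5076 and 8580 CPM in the members. Tested genes of either list may have met this limit through A20ZF7 alone, which was not tested. Their shared direction is a description and no support for either list. Without this limit, 3 of 9 class I genes and 2 of 8 interferon-stimulated genes were past 2-fold higher, beside 109 of 1828 genes. Ifitm1 was at 353 and 817 CPM, a ratio of 2.31 (1.92 to 2.80), and Iigp1, an interferon-induced GTPase, was 2.23-fold higher (1.64 to 3.07). H2-K1, the class I heavy chain, was at 1107 and 2198 CPM, a ratio of 1.98 (1.78 to 2.21), while its ratio was 1.02 in T cells and 1.26 in low-UMI barcodes. Ifitm1 was also higher in T cells (1.90-fold) and low-UMI barcodes (1.84-fold), and so was Iigp1 (1.67-fold and 2.34-fold). Both lists were higher in Adamdec1 fibroblasts of A20ZF7 too. Class I genes summed to 6421 CPM in WT and 9716 CPM in A20ZF7 there, against 5076 and 8580 CPM in the members. Interferon-stimulated genes summed to 6568 and 8763 CPM there, against 5568 and 7515 CPM in the members. The Iigp1 ratio in the members was 1.87 after thinning, below 2-fold. B2m was not tested, because its level in low-UMI barcodes was 1433 CPM in WT and 1768 CPM in A20ZF7 beside 1959 and 3136 CPM in the members.

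Genes lower in A20ZF7 were mostly at modest levels. Lsamp, a cell adhesion molecule of the IgLON family, was at 219 CPM (96 UMIs) in WT and 39.0 CPM (19 UMIs) in A20ZF7, a ratio of 0.178 (0.103 to 0.294). Opcml, of the same family, was at 148 and 43.1 CPM, a ratio of 0.291 (0.169 to 0.482). Hpgd, the enzyme that inactivates prostaglandin E2, was at 269 and 65.7 CPM, a ratio of 0.244 (0.160 to 0.364). Hpgd was lower in low-UMI barcodes as well, at 23.2 and 3.11 CPM (0.134), and its ratio in T cells was 0.447, while the Lsamp ratio was 0.515 in low-UMI barcodes and 0.659 in T cells. Tgfbi, a matrix protein induced by TGF-β, was at 166 and 45.1 CPM, and Angptl1 at 153 and 45.1 CPM. Enpp2, autotaxin, was at 114 and 41.0 CPM and Col15a1 at 196 and 78.0 CPM. Lsamp and Hpgd were lower in A20ZF7 in members with Pi16 (161 and 0 CPM, 143 and 24.7 CPM) and in members with Grem1 (294 and 49.0 CPM, 370 and 91.4 CPM). In members with Cd34 alone Lsamp had 11 and 4 UMIs, a ratio of 0.612.

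The genes higher in A20ZF7 were compared between the kinds of member. Steap4, given above for members with Pi16 and with Grem1, had 4 UMIs in each library in members with Cd34 alone, a ratio of 1.68. Saa3 in A20ZF7 was at 105 CPM in members with Pi16, 333 CPM with Grem1 and 450 CPM with Cd34 alone. Cfb was at 44.6 and 302 CPM in members with Pi16, 195 and 349 CPM with Grem1 and 69.8 and 294 CPM with Cd34 alone. Cyp1b1 was at 80.3 and 308 CPM with Pi16, 80.1 and 382 CPM with Grem1 and 81.4 and 313 CPM with Cd34 alone. In WT, Cfb and Ifitm1 had their highest level with Grem1, where Ifitm1 was at 504 CPM in WT and 1002 CPM in A20ZF7, against 125 and 487 CPM with Pi16.

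Most of these differences had the same direction in Adamdec1 fibroblasts. Of the 11 genes higher in A20ZF7 that were not immunoglobulin genes, all 11 were above 1 in Adamdec1 fibroblasts and 8 were past 2-fold, beside 27.5% and 3.42% of all tested genes. Of the 31 lower genes, 29 were below 1 and 13 past 2-fold, beside 72.5% and 3.01% of all tested genes. In T cells 3 of the 11 and 5 of the 31 were past 2-fold in the same direction, and in low-UMI barcodes 6 and 15. Ndufb4, among the 11, and Plac9a, among the 31, are in each of these counts, with low-UMI ratios of 8.44 and 0.00947. For T cells and low-UMI barcodes no share over all tested genes is given, so these counts cannot be set against a background. The ratio in the members was larger than in Adamdec1 fibroblasts for Cyp1b1, by 2.64 (1.78 to 3.91), and Serpina3n, by 1.62 (1.17 to 2.24). It was smaller for C3, by 0.568 (0.526 to 0.614), with C3 at 880 and 2583 CPM in Adamdec1 fibroblasts, and for Iigp1, by 0.659 (0.480 to 0.905), with a ratio of 3.38 in Adamdec1 fibroblasts. It was lower for Hpgd, by 0.442 (0.284 to 0.687). For Cfb the difference was within counting error, at 0.939 (0.674 to 1.31). These intervals hold no error between mice.

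**Figure D4:**
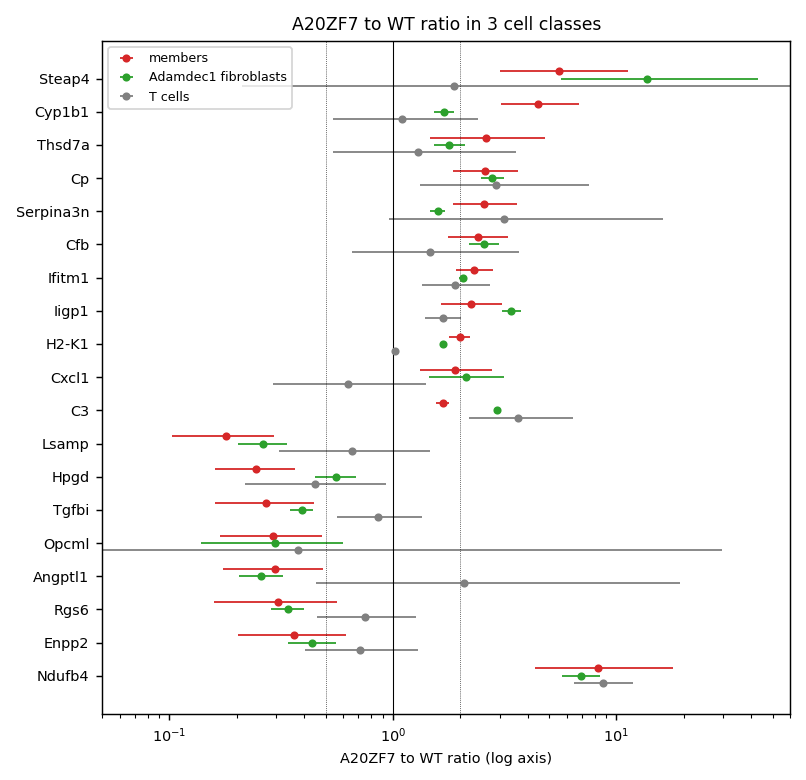
A20ZF7 to WT ratio of the level (log axis) in the members (red), Adamdec1 fibroblasts (green) and T cells (grey), with bars for the 95% counting interval, cut at the axis where they run past it; dotted lines mark 2-fold. Red and green points lie on the same side of 1 in every row, and H2-K1 is at 1.98 in the members and 1.02 in T cells.

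Matrix genes are given beside the 3.01% and 4.79% of all tested genes that were past 2-fold and their median of 0.847. Of 7 fibrillar collagen genes, 6 were tested, none was past 2-fold in the members and the median ratio was 0.965. Of 20 matrix glycoproteins, 18 were tested and none was past 2-fold, with a median of 0.826, Eln, elastin, at 492 and 823 CPM and Postn, periostin, at 501 and 269 CPM. Of 9 proteoglycan genes, 7 were tested and none was past 2-fold, with a median of 0.747. Of 21 matrix enzymes and inhibitors, 13 were tested and none was past 2-fold, with Timp3 at 421 and 240 CPM. Of 15 other collagen genes, 8 were tested and Col15a1 was past 2-fold.

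Niche signals, chemokines and receptors formed short lists, and over all tested genes 3.01% were past 2-fold higher and 4.79% lower, so that no called gene among so few is near the background. Of 15 Wnt and R-spondin genes, 4 were tested and none was past 2-fold, with Rspo3 at 155 and 137 CPM and Sfrp1 at 1025 and 1108 CPM. Of 17 chemokine genes, 5 were tested and none was past 2-fold, with Cxcl12 at 442 and 531 CPM, Ccl11 at 298 and 230 CPM and Cxcl13 at 98.0 and 142 CPM. Of 18 cytokine genes, Il33 (130 and 166 CPM) and Csf1 (109 and 117 CPM) were tested. Of 26 cytokine receptor genes, 6 were tested and none was past 2-fold, and of 20 growth factor genes, 3 were tested, all below 1, with Igf1 at 187 and 140 CPM.

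Summed transcripts of T, B and plasma, epithelial, endothelial and myeloid cells were below those of low-UMI barcodes in both libraries. The 14 T cell genes summed to 431 CPM in WT and 1235 CPM in A20ZF7, against 1821 and 3133 CPM in low-UMI barcodes, and Il17a was at 79.7 and 300 CPM against 34.9 and 285 CPM. The rule capped 5 of these 14 genes, and without them the sums were 335 and 1006 CPM against 1072 and 2122 CPM. The 10 B and plasma cell genes summed to 9282 and 11311 CPM against 19286 and 17787 CPM, led by Igha, with Ms4a1 at 0 in both libraries. The 16 epithelial genes summed to 2249 CPM in WT and 140 CPM in A20ZF7, against 3897 and 624 CPM, led by Fabp1. The 11 endothelial genes summed to 134 and 140 CPM against 264 and 331 CPM, led by Pecam1, and the 11 myeloid genes to 100 and 183 CPM against 662 and 643 CPM, led by Fcer1g. The pericyte and smooth muscle list, without the 3 muscle genes that the rule capped, summed to 335 and 259 CPM, above its 247 and 115 CPM in low-UMI barcodes, led by Rgs5. The glial and neuronal list summed to 61.5 and 82.1 CPM, above its 56.5 and 27.0 CPM in low-UMI barcodes, led by Ncam1, with S100b and Sox10 at 0. The mesothelial list summed to 22.8 and 10.3 CPM against 47.5 and 4.15 CPM, led by Wt1, with Msln and Upk3b at 0. The adipocyte list summed to 123 and 59.5 CPM against 224 and 148 CPM, led by Fabp4, with Adipoq at 0. The lymphoid stroma list summed to 330 and 410 CPM, above its 142 and 222 CPM, led by Mfge8 in WT and Cxcl13 in A20ZF7, and the list of interstitial cells of Cajal to 276 and 224 CPM, above its 124 and 132 CPM, led by Gpc6. The part of free RNA in the gene ratios was not tested beyond the limit against low-UMI barcodes.

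Surface antibodies were read in the WT members alone. The panel held 138 antibodies, and members carried 840375 antibody UMIs (median 1622 per member). The oligos that identify the antibodies against CD54, Sca1, CD34 and CD140a are shown because CD54 and Sca1 had high shares against T cells and because CD34 and CD140a are the proteins of Cd34 and Pdgfra.
CD54: ataaccgacacagtg
Sca1: ttcctttcctacgca
CD34: aaactcaggtccttc
CD140a: gtcattgcggtccta
CD54, the adhesion molecule ICAM-1, had a share of antibody UMIs 2.33 times that of T cells (2.26 to 2.41), and 0.977 times that of Adamdec1 fibroblasts. Sca1, the product of Ly6a, had 1.51 times the share of T cells (1.45 to 1.58) and 1.4 times that of Adamdec1 fibroblasts (1.35 to 1.46). Within the members Sca1 took 4.76 per 1000 antibody UMIs with Pi16, 2.35 with Grem1 and 4.43 with Cd34 alone. CD63 was 1.51 times the T cell share, while CD90pt2 (Thy-1) was 0.284 times, CD5 0.288 times and CD45 0.497 times. The other CD45 antibodies were closer to T cells, CD45pt2 at 0.90 times and CD45pt1 at 0.997 times, and CD3 was at 0.921 times. CD34 and CD140a (PDGFRα) stood at 1.07 and 0.987 times the T cell share and the 3 isotype controls at 0.999 to 1.05, so that these 2 antibodies did not stand apart from the controls although Cd34 and Pdgfra transcripts were present. CD55 was 0.670 times and CD39 0.748 times the share of Adamdec1 fibroblasts. CD31, the endothelial protein PECAM-1, was 1.27 times that share, with 18.5 per 1000 antibody UMIs in members with Cd34 alone, 5.95 with Pi16 and 5.91 with Grem1, while the medians over members were 4.20, 4.01 and 4.13.

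**Figure D5:**
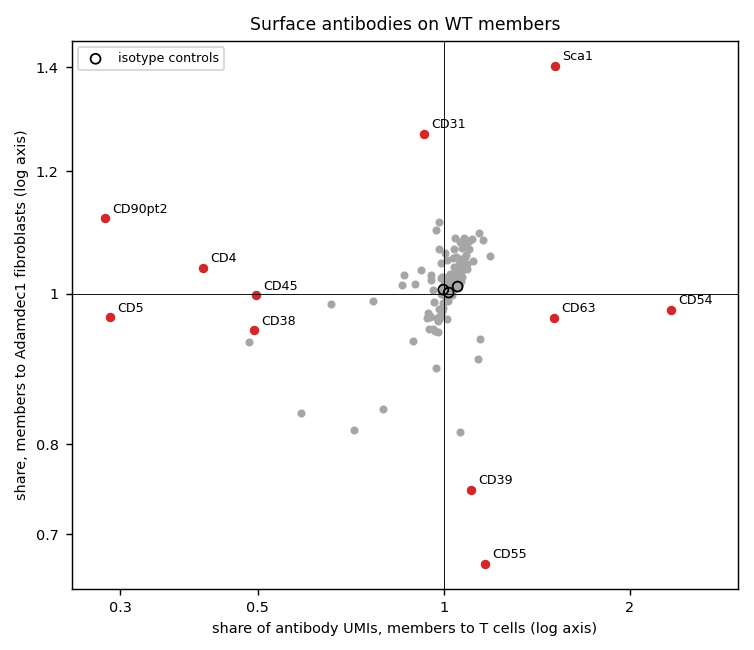
Share of antibody UMIs in WT members relative to T cells (x axis, log axis) and to Adamdec1 fibroblasts (y axis, log axis), 1 point per antibody, with the isotype controls as open circles near 1. Sca1 lies above 1 on both axes, and CD54 lies to the right at 2.33 and level with Adamdec1 fibroblasts.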

How the data were processed

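Single-cell RNA-Seq and surface antibody libraries of small intestinal lamina propria were used, the first from WT and A20ZF7 mice and the second from WT mice. The deposited files hold unfiltered UMI counts for each barcode, which the authors obtained with Cell Ranger (7.1 in the submitters' processing notes, 8.0.0 in the headers of the gene expression matrices). The authors name mm10 as the genome. The gene lists of the 2 libraries differ, and whether both were counted on mm10 was not tested. The 3 A20ZF7 antibody files were identical to those of WT and were not used. The gene counts were analysed in Python 3.11.15 (scipy 1.17.1 for intervals, pandas 2.3.3 for tables) over the 31950 gene identifiers of both libraries. Members' UMIs were summed per library and divided by their total (CPM). Intervals were exact binomial, Poisson or conditional binomial, and those of ratios of shares and of ratios of ratios used the log method. With 1 library per genotype no test was run. The fold rule was checked on simulated counts. WT mice were called with HTODemux (R 4.3.3, Seurat 5.3.0, quantile 0.99), doublets were left in, and Scrublet scores (scanpy 1.11.5) above 0.25 were removed in an alternative. Named genes were those of the rule and lists, and the 10 largest and 10 smallest ratios between genotypes and against Adamdec1 fibroblasts, without mitochondrial, ribosomal, antigen receptor, haemoglobin, sex-linked and predicted (Gm, Rik) genes, with the 10 antibodies highest and 5 lowest against T cells. Genes and antibodies named outside this rule, such as those that set members with Pi16 and with Grem1 apart, were picked after their values were seen, as were the comparison of those members and 5 alternatives. The members and lists were chosen with earlier results of these data known. Results for some genes are not reported here.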

Additional observations from a re-analysis of the deposited data

Results flagged for a closer look

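4 genes were past 2-fold in one direction in the members and past 2-fold in the other direction in Adamdec1 fibroblasts, and these differences were not tested. Inmt, a methyltransferase, was at 116 CPM (51 UMIs) in WT members and 45.1 CPM (22 UMIs) in A20ZF7 members, a ratio of 0.389, while in Adamdec1 fibroblasts its levels were 1.79 and 4.96 CPM, a ratio of 2.76. Its ratio in low-UMI barcodes was 0.328. The other 3 were immunoglobulin variable genes. Igkv12-89 had a ratio of 15.8, with 99.5% of its A20ZF7 UMIs in 1 member. Ighv1-76 had a ratio of 63.9, with 98.6% of its A20ZF7 UMIs in 1 member, and Igkv4-74 had a ratio of 0.00345, with 99.4% of its WT UMIs in 1 member.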

How the results depend on the processing

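No paired analysis was possible because each genotype was 1 library of 2 pooled mice with nothing that pairs them. The share ratio of 0.767 was 0.516 with at least 1000 UMIs per barcode and 0.662 without members holding a Ptprc, Pecam1, Cdh5 or Epcam UMI. The 22 higher genes were 42 at 50 CPM and 10 UMIs, 109 without the limit against low-UMI barcodes, 46 at a fold of 1.5, 30 after thinning, 36 in members with Pi16 and 11 in members with Cd34 alone, but the last 3 held only 11, 10 and 2 of the 22. The 35 lower genes were 99, 54 and 142 under the first 3 of these. They were 83 of 732 tested with at least 1000 UMIs and 76 of 808 tested with at least 3 UMIs of the 3 genes. After thinning they were 57, and in members with Grem1 56. In that order, from at least 1000 UMIs on, they held 33, 23, 24 and 27 of the 35. The counts against Adamdec1 fibroblasts ranged from 69 to 84 and from 72 to 93. The 66 genes higher with Pi16 were 42 at 20 UMIs and 43 after thinning, and the 62 higher with Grem1 were 99 after thinning. Where the number of genes tested under a setting is not given, its counts cannot be set against a share of all tested genes. Sca1 relative to T cells was 1.77 without barcodes carrying 2 hashtags and 2.03 as a median over members. For 27 named genes, 345 of 403 values under 15 settings were within the counting interval of the main value (for Saa3, with no WT UMI, in its direction) and 56 were outside it. The other 2 values were counted as reversed. They were Angptl1 in members with Cd34 alone, at 1.68 (3 UMIs in each library), and Rgs6 without the WT mouse with hashtag 7, at 1.04 (1 WT UMI). Cd34, a gene of the rule, also crossed 1, with a main ratio of 0.668 and a highest value of 1.15 over the settings. Ratios below 2-fold were found for Cp (1.91) and Serpina3n (1.72) with at least 1000 UMIs, Cp (1.93) and Iigp1 (1.94) with at least 3 UMIs of the 3 genes, Iigp1 (1.87) and Thsd7a (1.46) after thinning, and Cfb (1.80) and Ifitm1 (1.99) in members with Grem1. In members with Cd34 alone, Lsamp (0.612), Steap4 (1.68) and Thsd7a (1.12) were within 2-fold on 11 or fewer UMIs per library, and so was Gask1b (0.565, 11 and 9 UMIs) in members with Pi16. With only the WT members of hashtag 7 the ratios of Serpina3n (1.57), Enpp2 (0.519), Plekha6 (0.701) and Gask1b (0.550) were within 2-fold, and with only those of hashtag 8 those of Thsd7a (1.70, 2 WT UMIs) and Cfb (1.87, 6 WT UMIs). The cause was not tested. After removal of genes past 2-fold alike in T cells and low-UMI barcodes, an alternative chosen after seeing the data, 16 genes were higher and 30 lower. Between genotypes, genes under 20 UMIs in both libraries were left out, and no interval covers variation between mice.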
